A study of Mus musculus with 3 samples.

Results

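5-hydroxymethylcytosine (5hmC) regions in the coding exons of protein-coding genes were examined in hMeDIP data of mouse cerebellum. Peaks of the 3 replicates that overlapped by at least 1 bp were merged on chromosomes 1 to 19. A merged region was kept where its midpoint lay in the coding sequence of a protein-coding transcript (GENCODE M39, GRCm39) and over 1000 bp from every protein-coding start. This gave 890 coding-exon regions out of 13285 merged regions. Of the others, 7943 were centred in introns, 429 in 3′ untranslated exons and 4023 elsewhere, the last including the 150 regions in coding sequence within 1000 bp of a start. Regions just beyond that limit lay in Lsr and Chd7, at 1005 and 1009 bp, and those just inside 1000 bp, which were not kept, in Snx19, Zfp358 and Syvn1, at 987, 978 and 965 bp.

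In hMeDIP, sonicated fragments with 5hmC are pulled down by an antibody, and each CpG of the product is read in the nanopore as 5hmC, 5mC or unmodified C. The DNA came from a C57Bl6Cr female of 8 weeks for which no treatment, transgene or other genotype is named, and all 3 library names carry the same animal code. Each reaction held 1 µg DNA with a mean fragment of 362 bp. The antibody was whole serum in replicate 1 and IgG-purified in the other replicates, so that antibody and replicate 1 cannot be told apart. The spread between replicates is that of pulldown and sequencing and not that between mice. The tissue label could not be checked against marker expression, since the files hold DNA signal only.

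5hmC arises when TET dioxygenases oxidise 5-methylcytosine (5mC). It is plentiful in neurons, where it lies within the bodies of transcribed genes more than at CpG islands or promoters. Exons are richer in CpGs than introns, and the bodies of active genes are generally methylated between their CpG islands, so a coding exon offers many cytosines in each of the 3 states.

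The sequences below show what a coding-exon region looked like at the level of single CpGs. Each is the stretch of at most 150 coding bases with the most base-calls in its region, printed 5′ to 3′ on the forward strand of GRCm39, on which the calls were made. Capitals mark CpGs with at least 1 call of 5hmC in any replicate, and lower-case cg marks CpGs with calls of 5mC or unmodified C only. Adcy9 (chr16:4236125-4236274), Emilin3 (chr2:160749736-160749885), Celsr2 (chr3:108320130-108320279) and Lrrc4b (chr7:44111666-44111815) are shown because their region had a peak in all 3 replicates, although the Celsr2 stretch itself lay in the peak of replicate 3 only. Kcnd2 (chr6:21217035-21217184) and Lmtk3 (chr7:45447659-45447808) are shown as regions with a high and a low 5hmC share.
Adcy9: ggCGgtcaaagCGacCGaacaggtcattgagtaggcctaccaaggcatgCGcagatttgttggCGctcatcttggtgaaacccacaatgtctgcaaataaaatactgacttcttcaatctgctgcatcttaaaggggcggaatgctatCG
Emilin3: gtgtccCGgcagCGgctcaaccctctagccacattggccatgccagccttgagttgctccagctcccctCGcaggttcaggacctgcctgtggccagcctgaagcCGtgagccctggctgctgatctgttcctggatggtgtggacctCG
Kcnd2: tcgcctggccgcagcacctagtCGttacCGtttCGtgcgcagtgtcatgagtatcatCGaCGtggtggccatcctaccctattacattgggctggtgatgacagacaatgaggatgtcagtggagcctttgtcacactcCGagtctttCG
Lrrc4b: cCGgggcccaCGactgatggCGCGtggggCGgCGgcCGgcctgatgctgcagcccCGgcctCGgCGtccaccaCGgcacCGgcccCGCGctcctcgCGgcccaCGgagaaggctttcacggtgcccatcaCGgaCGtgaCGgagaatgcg
Celsr2: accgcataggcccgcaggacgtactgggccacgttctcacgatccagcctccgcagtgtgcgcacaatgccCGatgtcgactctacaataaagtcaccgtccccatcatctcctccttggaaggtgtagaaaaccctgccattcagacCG
Lmtk3: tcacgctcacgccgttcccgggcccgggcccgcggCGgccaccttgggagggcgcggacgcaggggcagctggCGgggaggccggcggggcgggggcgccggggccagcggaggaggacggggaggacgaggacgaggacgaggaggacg
In the Emilin3 stretch, all 5 CpGs had a 5hmC call, and 18 of its 27 calls were 5hmC. In Adcy9, 6 of 7 CpGs and 19 of 28 calls were 5hmC. Lrrc4b, with 22 CpGs, held 5hmC at 19 of them but 56 of its 121 calls were 5mC. In the Celsr2 stretch 45 of 48 calls were 5mC and 2 were 5hmC. In Lmtk3, 38 of 40 calls were unmodified C and 2 were 5hmC. The stretch of most calls was chosen by depth alone, so that it need not be the part of a region that carries most 5hmC.

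Coding exons held more of the peaks than their size would give. A peak was counted where its merged region was centred in a coding exon. Replicate 1 had 50 such peaks among its 490 (10.2%). Replicate 2 had 566 among 8506 (6.65%), and replicate 3 had 381 among 5146 (7.4%). The mean was 8.09 ± 1.87% (SD, n = 3). The same rule is met by 1.23% of the bases and by 3.81% of the CpGs of chromosomes 1 to 19, and every replicate was above both. Replicate 1, with the fewest peaks, had the highest share. Without replicate 2, which gave most of the peaks, merging and classing again gave 433 coding-exon regions, not all of them among the 890.

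A larger share of coding-exon regions than of other regions was found in more than 1 replicate. A peak was called in replicate 2 alone in 471 regions, in replicate 3 alone in 294 and in replicate 1 alone in 27. A further 75 regions were shared by replicates 2 and 3, 12 by replicates 1 and 2, 4 by replicates 1 and 3, and 7 by all. In all, 98 regions (11%) had a peak in at least 2 replicates, against 409 of 7943 intron regions (5.15%), 33 of 429 regions in 3′ untranslated exons (7.69%) and 253 of 4023 other regions (6.29%). Recurrence moved with CpG density. It rose from 1.48% of coding-exon regions with 1 to 2 CpGs per 100 bp to 21.5% of those with at least 5, and from 4.79% to 14.9% in intron regions. At 2 to 3 CpGs per 100 bp the shares were 7.58% in coding exons and 8.34% in introns, and at 3 to 5 CpGs per 100 bp 14.4% and 7.2%. Recurrence is a single value for the 3 replicates together, so that no test was made.

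**Figure D1:**
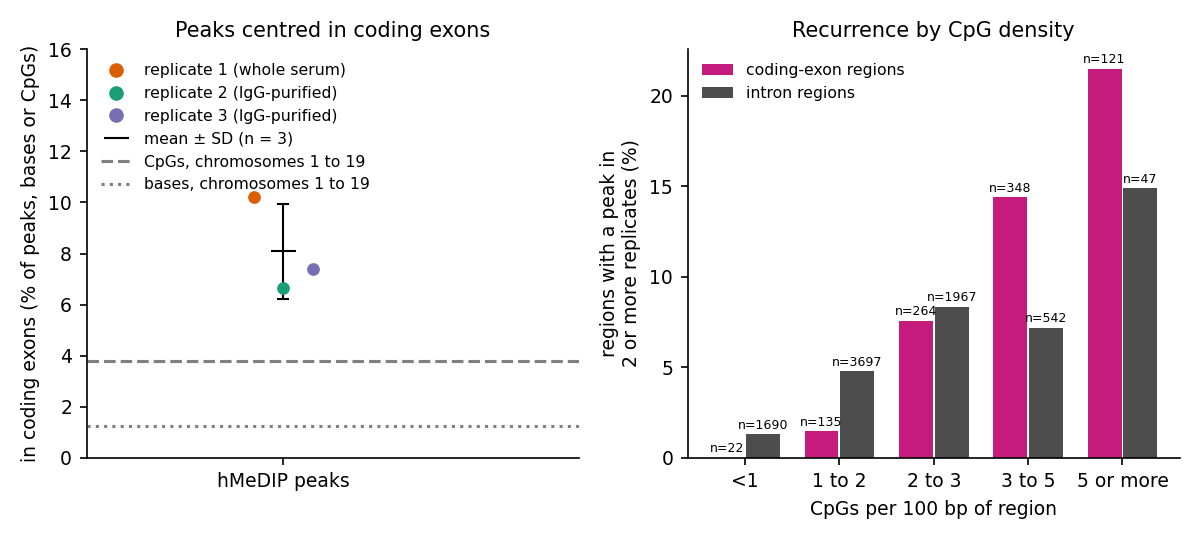
Left, share of hMeDIP peaks whose merged region was centred in a coding exon in each replicate (%, points) with mean and SD, beside the shares of CpGs (dashed line) and bases (dotted line) of chromosomes 1 to 19 that meet the same rule. Right, share of coding-exon and intron regions with a peak in at least 2 replicates (%, bars) by CpGs per 100 bp, with the number of regions above each bar; coding-exon regions are below intron regions up to 3 CpGs per 100 bp and above them beyond.

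The regions were short and mostly coding. They ranged from 295 to 2631 bp with a median of 341 bp, and a median of 66.2% of their bases was coding. In 636 of them (71.5%) at least 50% of the bases were coding, and 243 were wholly coding. They lay a median of 7710 bp from the nearest start. Genes of the plus strand held 435 regions and genes of the minus strand 455.

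Long exons, and exons at either end of the coding sequence, were over-represented. The median coding exon under a peak was 1358 bp long in replicate 1, 448 bp in replicate 2 and 646.5 bp in replicate 3, against 196 bp when all coding bases that meet the rule are weighted equally, or 205 bp when their CpGs are. Exons of up to 150 bp held 17.4 ± 1.48% of the peaks but 34.1% of the coding bases, and exons over 150 and up to 300 bp 19.8 ± 7.48% against 28.5%. The order turned for longer exons, with 24.0 ± 3.71% against 14.3% for those over 1000 and up to 3000 bp, and 21.8 ± 5.7% against 10.8% beyond 3000 bp (all SD, n = 3). By place, 555 regions lay in internal, 197 in last, 72 in first and 66 in single coding exons. Internal exons made up 56.3 ± 7.89% of the peaks and 72.5% of the coding bases. First coding exons made up 11.9 ± 5.47% against 3.84%, single ones 7.23 ± 1.21% against 4.03%, and last ones 24.6 ± 3.22% against 19.6%. In each of these 4 places all 3 replicates lay on the same side of the background (two-sided exact sign-flip permutation test over replicates, p = 0.25, the smallest that 3 replicates can give).

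**Figure D2:**
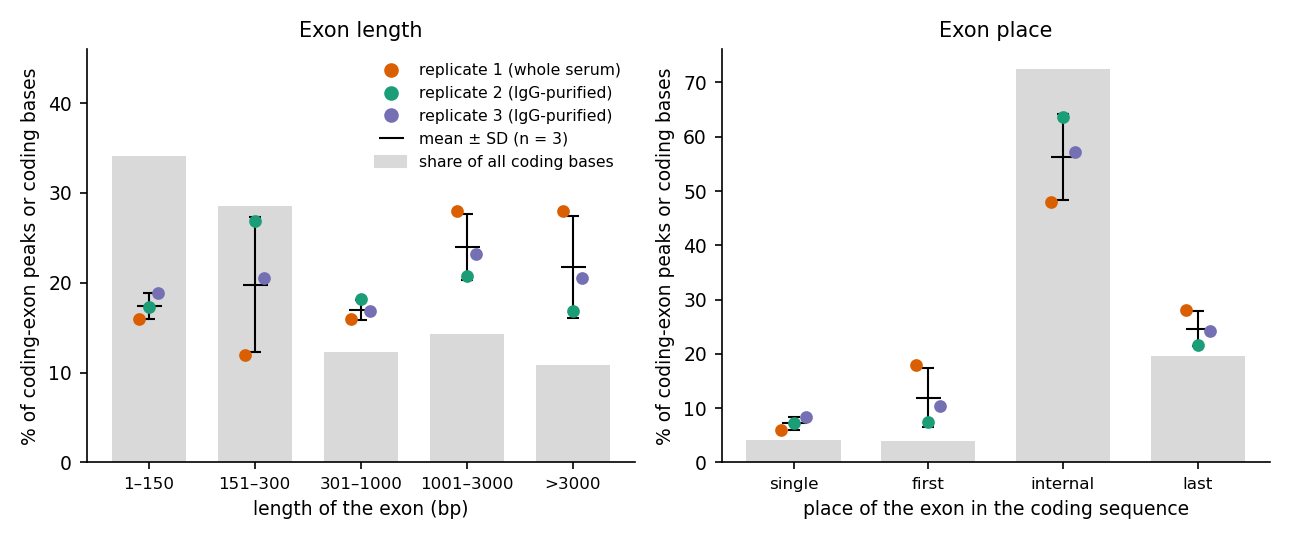
Share of coding-exon peaks (%) by length of the exon in bp (left) and by place of the exon in the coding sequence (right), per replicate (points) with mean and SD, over the share of all coding bases that meet the same rule (grey bars). In all 3 replicates peaks lie under the grey bars for exons of up to 300 bp and internal exons, and above them for the other classes.

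The longest exons show this at single genes. Zfp469, a zinc finger protein gene with a single coding exon of 12711 bp, held a region with a fold enrichment (pileup at the peak summit over local background) of 3.81 in replicate 2 and 3.87 in replicate 3. In the 12318 bp exon of Gprin3 and the 11061 bp exon of Kcna2, a voltage-gated potassium channel, the peaks were called in replicate 2 only, each at 4.79. Most of the Gprin3 and Kcna2 exons is untranslated, and the regions counted lay in the coding part.

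Coding-exon peaks were richer in CpGs than intron and 3′ untranslated exon peaks in each replicate. Their median CpG density was 4.22, 3.08 and 3.31 CpGs per 100 bp in replicates 1 to 3, against 1.93, 1.64 and 1.66 in intron peaks, a difference of 1.8 ± 0.444 (SD, n = 3). In peaks of 3′ untranslated exons it was 2.2, 2.0 and 2.03. The coding bases that meet the rule have 2.63 CpGs per 100 bp and the genome 0.851, so that the peaks were denser than their own background. Median GC content was 58.5 ± 1.93% against 49.0 ± 1.11% in intron peaks. All 3 replicates were higher for both measures (exact sign-flip permutation test, p = 0.25). Fold enrichment was nearly the same, with medians of 4.9, 3.83 and 3.87 in coding-exon peaks and 4.72, 3.81 and 3.86 in intron peaks, a difference of 0.0681 ± 0.0952, or 0.0131 without replicate 1.

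Base-calls at single CpGs were thin. The files hold 69910 calls at 29039 CpGs for replicate 1, 104238 at 64388 for replicate 2 and 75624 at 47104 for replicate 3. Coding-exon peaks held 1568, 11285 and 7091 of these, covered 84.5%, 73.9% and 77.3% of their CpGs, and had a median of 1 call per called CpG. No call was present in 40 peaks of replicate 2 and 20 of replicate 3. Shares are therefore summed over CpGs, and intervals cover counting error only, as calls of the same read are not independent.

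Of the calls in coding-exon peaks, 5mC was the most frequent state. Replicate 1 had a 5hmC share of 25.5% (exact binomial 95% interval 23.4 to 27.7%). It was 27.2% (26.3 to 28.0%) for replicate 2 and 28.5% (27.5 to 29.6%) for replicate 3, a mean of 27.1 ± 1.51% (SD, n = 3). The 5mC share was 41.3% in each replicate. Unmodified C made up 33.2%, 31.5% and 30.2%. Intron peaks had more 5hmC, with 28.9%, 34.9% and 31.7%, so that coding exons were lower in all 3 replicates by a mean of 4.79 ± 2.55 percentage points, and higher in unmodified C by 5.11 ± 1.02 (exact sign-flip permutation test, p = 0.25 for both). In regions with at least 10 CpGs the 5hmC difference was −2.4 ± 3.98 and the replicates did not all have the same sign (exact p = 0.5), and at CpGs with at least 3 calls it was −0.413 ± 7.38 (exact p = 1.0). For 5mC the difference of −0.319 ± 1.88 lay within the spread (exact p = 0.75), but without regions in which a CpG had 20 or more calls it was 2.86 ± 1.84, higher in all 3 replicates (exact p = 0.25). Against peaks of 3′ untranslated exons the 5hmC share differed by 0.173 ± 1.54 points (exact p = 1.0). Against all other regions it was 11.4 ± 8.99 points higher. Without the same regions, none of them in coding exons, this fell to 0.543 ± 3.32. In all, 40 comparisons of shares were made, and the smallest p adjusted over them (Benjamini-Hochberg) was 0.455.

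**Figure D3:**
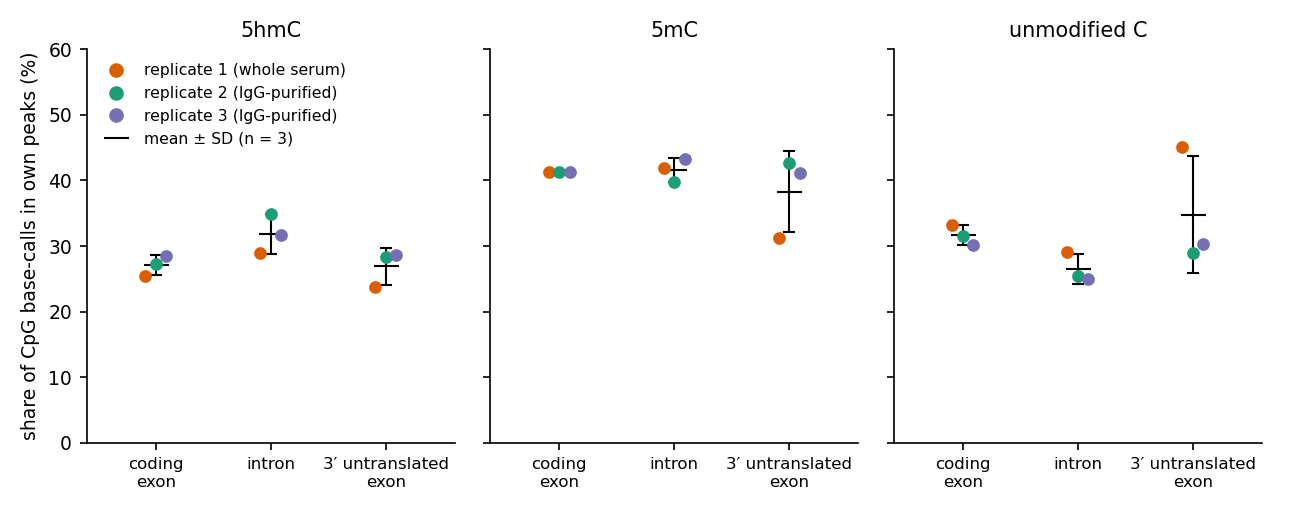
Share of CpG base-calls (%) that were 5hmC, 5mC or unmodified C inside each replicate's own peaks in coding exons, introns and 3′ untranslated exons (points, with mean and SD). Coding-exon peaks lie below intron peaks in 5hmC and above them in unmodified C in each replicate, and their 5mC share is 41.3% in all 3.

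The difference from introns varied with CpG density, and from 6 CpGs per 100 bp upwards its direction rested on 1 intron region per replicate. Below 2 CpGs per 100 bp, the 5hmC share was 31.5 ± 5.06% in coding-exon and 36.4 ± 2.1% in intron regions, a difference of −4.91 ± 3.01 points. Replicate 1, with only 35 coding-exon calls there, gave −8.26, and replicates 2 and 3 gave −3.99 and −2.46. At 2 to 3 and 3 to 4 CpGs per 100 bp the differences were −1.54 ± 1.11 and −1.49 ± 1.38. At 4 to 6 CpGs per 100 bp the difference was 3.59 ± 4.3, and from 6 upwards coding-exon regions had 22.1 ± 2.05% against 17 ± 2.31%, a difference of 5.18 ± 3.46. Intron calls from 6 upwards numbered 739, 1635 and 3216 in replicates 1 to 3, of which 739, 1379 and 2862 lay in 1 region per replicate with a CpG of 20 or more calls. Without these deep regions no intron region was left in replicate 1, and the difference was −7.06 points in replicate 2 and −4.62 in replicate 3. At 4 to 6 CpGs per 100 bp, where 360 of 1216 intron calls of replicate 3 came from a single deep region, the difference without it was 1.72 ± 3.15, higher in 2 of 3 replicates (exact sign-flip permutation test, p = 0.5). Over all densities the difference without deep regions was −6.96 ± 1.32. In coding exons 5hmC was lowest where CpGs were densest. Over the 445 coding-exon regions with at least 20 calls, the Spearman correlation of 5hmC share with CpG density was −0.28, given as a description since regions share libraries and depth. The correlation of 5hmC share with the GC content of the same regions was −0.215, and the part of GC content in the calls was not tested.

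Calls were also present where a replicate had no peak of its own. In coding-exon regions called only in other replicates, replicate 1 had a 5hmC share of 25.9% among 4564 calls, replicate 2 of 26.8% among 1312 and replicate 3 of 26% among 2300. Own peaks exceeded these by 0.808 ± 1.49 points (exact sign-flip permutation test, p = 0.75). The coding-exon share was thus nearly the same with and without a peak. In intron regions without a peak it was 35.1 ± 1.97%, and the difference of coding-exon regions from it was −8.86 ± 2.27 points, lower in all 3 replicates (exact p = 0.25).

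Within coding-exon peaks, calls could be placed by intron, splice site, codon and strand. CpGs in the flanking intron had 34.5%, 29.1% and 31.1% 5hmC, above the 25.3%, 27.0% and 28.4% of the coding CpGs of the same peaks, a difference of −4.62 ± 3.96 points. In the 360 regions with calls in both it was −2.86 ± 4.4, with −7.93 points in replicate 1 but −0.366 and −0.267 in replicates 2 and 3 (exact p = 0.25 for both). Without replicate 1 the difference over all peaks was −2.35. Intron calls numbered 84 in replicate 1, 1356 in replicate 2 and 589 in replicate 3.

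Exon CpGs close to splice sites were higher in 5hmC when both ends of the exon were pooled. Within 50 bp of a splice site the share was 30.1%, 31.3% and 31.9%, and deeper in the exon 25%, 26.1% and 27.7%, a difference of 4.8 ± 0.603 points and the values did not overlap (exact sign-flip permutation test, p = 0.25). The deeper CpGs included those of single-exon coding sequences, which have no splice site. The exon side also held some CpGs beyond the coding sequence. The distance of 50 bp was chosen after the files were seen. The difference was 3.13 ± 1.58 points with 25 bp in place of 50 bp, 2.33 ± 2.53 in internal exons and 3.03 ± 1.67 where a region had calls on both sides of the 50 bp mark. In exons of up to 300 bp it was 2.96 ± 4.05 and the replicates did not all have the same sign (exact p = 0.5). From the acceptor, at the exon's 5′ end, the mean share was 30.3% over the first 50 bp, 26.1% up to 150 bp and 23.7% beyond. From the donor, at its 3′ end, it was 32.0%, 31.7% and 30.3%. In replicate 3 it was lower near the donor (28.6%) than deeper (29.6% and 34.2%). In replicate 1 it was 36.5% near the donor, 39.8% up to 150 bp and 28.9% beyond. Peaks were also split by the length of the exon at the midpoint of their region, with all their calls counted, flanking intron included. The 5hmC share was 33.1 ± 2.21% for exons of up to 150 bp and 24.2 ± 9.38% for those over 150 and up to 300 bp. It was 29.8 ± 7.02% up to 1000 bp, 27.4 ± 1.75% up to 3000 bp and 23.1 ± 5.25% beyond, with no steady order. The contrast of peaks at exons over 1000 bp with those at exons up to 300 bp was −2.61 ± 1.38 points. The part of the flanking intron in this contrast was not tested. Peaks in single coding exons, their calls outside the coding sequence included, had 5.48% 5hmC among 73 calls in replicate 1, against 25.1% and 24.8% in replicates 2 and 3.

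The 3 codon positions had similar shares. CpGs whose coding-strand cytosine lay at codon position 1, 2 or 3 had 28.0 ± 1.67%, 26.4 ± 2.76% and 26.6 ± 3.01% 5hmC. Position 3 differed from positions 1 and 2 by −0.636 ± 2.86 points (exact p = 1.0). For genes of the plus strand the shares at positions 1 to 3 were 29.8%, 26.7% and 27.0%, and for genes of the minus strand 26.8%, 26.1% and 26.2%.

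All called sites lay on the forward strand. In replicate 2, a fold enrichment of 3.83 stands for about 3 reads at the summit, and 96 such peaks had at least 8 coding CpGs. Their best-covered CpG had over 3 calls in 1, 3 in 13, 2 in 48, 1 in 30 and no call in 4. Of 68 replicate 3 peaks at 3.87 it had 3 calls in 11, 2 in 28, 1 in 25 and none in 4. Of 6 replicate 1 peaks at 5.67 it had 3 calls in 2 and 2 in 4. At about 3 reads, as in the peaks of replicates 2 and 3, calls of both strands would mostly give 3. A fold enrichment of 5.67 in replicate 1 stands for more reads, so that this number does not apply there. Genes of the plus strand were thus taken as read on the coding strand, and genes of the minus strand on the template strand. The coding strand had 26.5%, 27.2% and 29.0% 5hmC and the template strand 24.4%, 26.7% and 27.9%, a difference of 1.22 ± 0.863 points, higher in 3 of 3 replicates (exact p = 0.25), or 0.765 without replicate 1. In intron regions the sign was the opposite, at −3.86 ± 3.04 points, lower in 3 of 3. The strands come from different genes, so that the genes and the strand cannot be told apart.

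**Figure D4:**
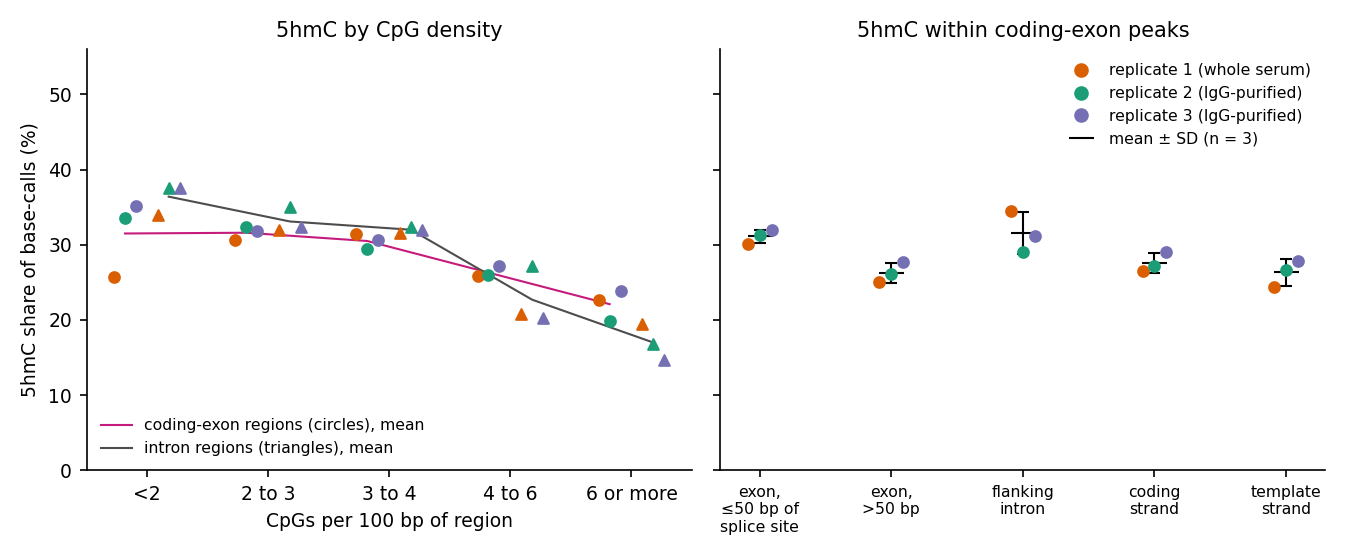
5hmC share of base-calls (%) by CpGs per 100 bp in coding-exon regions (circles) and intron regions (triangles), with lines through the means (left), and within coding-exon peaks by distance from a splice site, flanking intron and strand (right, points with mean and SD). Coding-exon means lie below intron means up to 4 CpGs per 100 bp and above them beyond, where from 6 upwards most intron calls come from 1 region per replicate, and exon bases within 50 bp of a splice site are higher than deeper bases in all 3 replicates.

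Regions with a peak in at least 2 replicates carried more 5hmC, with 30.3%, 31.4% and 32.3%, against 20.1%, 25.6% and 26.4% in regions of 1 replicate. The difference was 7.29 ± 2.56 points, higher in 3 of 3 replicates (exact p = 0.25). Peaks and calls come from the same reads, so that the measures are not independent.

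Single regions differed widely. Their shares use every call in the merged region in each replicate, also in replicates without a peak there. Summed over replicates, 25 of 890 regions had no call and 445 had at least 20. Among the latter the 5hmC share ran from 0.0 to 68.2% with a median of 26.3%, and quartiles of 18.2 and 35.0%. 5mC was the most frequent state in 234, unmodified C in 131 and 5hmC in 62. In 20 regions over 50% of calls were 5hmC, in 76 over 50% were unmodified C, and 4 had no 5hmC call. Between replicates 2 and 3, the share of the 102 regions with at least 15 calls in each differed by a median of 10.7 points (Spearman correlation 0.28 across regions, as a description), so that the order of single regions was only loosely kept.

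The 7 regions with a peak in all replicates were in Adcy9, Celsr2, Emilin3, Lrrc4b, Ntn3, Sh3pxd2a and Stat2. In Celsr2 and Ntn3 the 3 peaks shared no base: those of replicates 1 and 2 in Celsr2, and of replicates 1 and 3 in Ntn3, were joined only through the peak of the remaining replicate. Sh3pxd2a encodes a scaffold protein of podosomes, and its region in the last coding exon (chr19:47254710-47256385) had fold enrichments of 6.58, 4.77 and 5.79 in replicates 1 to 3, the highest mean of the 7 (5.71 ± 0.907). The 5hmC share there was 17.3%, 22.9% and 43.3%. Emilin3 encodes a glycoprotein of the extracellular matrix. Its region (chr2:160748815-160750607, last coding exon) had fold enrichments of 6.61, 4.79 and 4.84 and 5hmC shares of 58.6%, 50.0% and 54.5%, which were high in every replicate.

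Lrrc4b, a postsynaptic adhesion protein with leucine-rich repeats, held a wholly coding region in its last exon (chr7:44111194-44112136) with 88 CpGs. Fold enrichment was 5.55, 5.55 and 4.78 and the 5hmC share 26.8%, 21.3% and 17%. Celsr2, an atypical cadherin of planar cell polarity, held the longest of all coding-exon regions, 2631 bp within its first exon (chr3:108319679-108322309). Fold enrichment was 5.67, 4.77 and 4.84, the 5hmC share 14.1%, 18.3% and 29.5%, and the 5mC share 76.9%, 63.5% and 55.7%.

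Stat2, a transcription factor of interferon signalling, had a region centred in an internal exon of 137 bp (chr10:128120362-128121327) with fold enrichments of 5.67, 4.79 and 3.87. Its 5hmC share was 39.1%, 28.8% and 50.0%. Adcy9 encodes an adenylyl cyclase, which makes cyclic AMP. Its region in the first coding exon (chr16:4236078-4236559) had nearly equal fold enrichments of 4.72, 4.62 and 4.72 and 5hmC shares of 54.5%, 63.6% and 90.9%. Ntn3, a ligand of the netrin family of axon guidance, had fold enrichments of 3.78, 4.79 and 3.87 (chr17:24426082-24428000, first coding exon). Its 5hmC share was 13.9% of 72 calls, 28.3% of 106 and 55.6% of 9, so that the value of replicate 3 rests on few calls.

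Among regions with at least 40 calls, 216 in number, Adcy9 had the highest 5hmC share, 68.2% of 44 calls (exact binomial 95% interval 52.4 to 81.4%). It was followed by Kcnd2 with 64.5% of 76 (52.7 to 75.1%) and Dip2b with 61.2% of 49 (46.2 to 74.8%), whose intervals overlap. Kcnd2 encodes a voltage-gated potassium channel of the A-type current, and its region, wholly within the first coding exon (chr6:21216322-21217343), had 60% 5hmC in replicate 2 and 67.4% in replicate 3, the replicates with a peak. At the other end were Lmtk3 with 3.33% of 60 calls (0.406 to 11.5%), Hic1 with 3.57% of 84 (0.743 to 10.1%) and Zfp46 with 3.64% of 55 (0.443 to 12.5%). Each of these had a peak and all its calls in 1 replicate. Lmtk3 and Hic1 were almost free of modification, with 95% and 92.9% unmodified C, whereas Zfp46 had 43.6% 5mC. Hic1 encodes a zinc finger transcriptional repressor, and its region had 7.89 CpGs per 100 bp. The reverse strand was not analysed here.

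**Figure D5:**
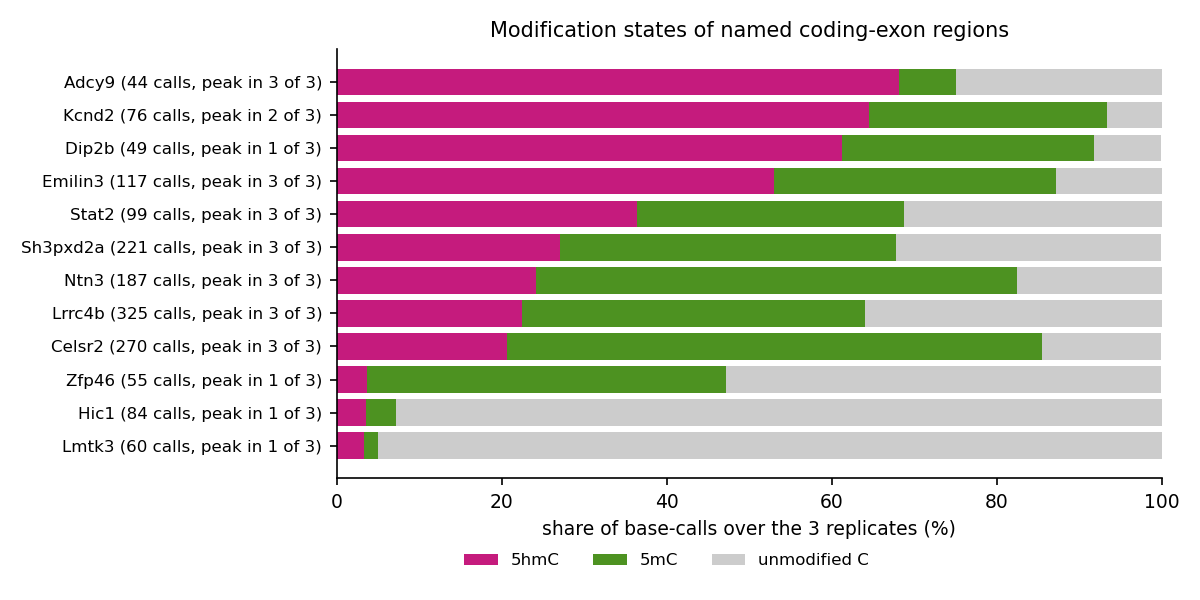
Share of base-calls (%) that were 5hmC, 5mC and unmodified C, summed over the 3 replicates, in the 7 regions recovered in every replicate, and in the 3 regions each with the highest and lowest 5hmC share among those with at least 40 calls (Adcy9 is in both sets). 5hmC falls from 68.2% in Adcy9 to 3.33% in Lmtk3, and Celsr2 has a peak in every replicate with mostly 5mC.

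Of the 91 regions in exactly 2 replicates, Jph4 had the highest mean fold enrichment, with 6.51 in replicate 1 and 6.62 in replicate 2. It encodes a junctophilin, which ties the endoplasmic reticulum to the plasma membrane in neurons. Zbtb7a, a zinc finger repressor, had 5.08 in replicate 1 and 7.34 in replicate 3. Kcnj9, a subunit of G protein-gated potassium channels, had 5.67 and 5.74 in replicates 1 and 2. The others of the highest 10 were Abhd8 (6.61 and 4.84 in replicates 1 and 3), Lingo3 (4.79 and 5.81 in replicates 2 and 3), Btbd3 (6.7 and 3.87) and Plcxd1 (7.66 and 2.9), both in replicates 2 and 3, Smad7 (4.72 and 5.74 in replicates 1 and 2), Foxo3 (6.62 and 3.77 in replicates 2 and 3) and Jarid2 (6.54 and 3.53 in replicates 1 and 2). They included transcriptional regulators, among them the forkhead factor Foxo3, the inhibitor of TGF-β signalling Smad7 and the Polycomb cofactor Jarid2. Over all replicates the 5hmC share of these 10 regions ran from 22.9% in Lingo3 to 42.4% in Btbd3.

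The regions with most calls were Gdf1 (406), Apba1 (402), Zbtb7a (353), Ccdc177 (332) and Lrrc4b (325). All had over 6 CpGs per 100 bp. Gdf1 encodes a ligand of the TGF-β superfamily, and 62.6% of its calls were unmodified C, with 5hmC at 20%, 13.4% and 20.3%, the first from replicate 1, which had no peak there. Apba1, a synaptic adaptor protein, had 22.8%, 23.5% and 21.2% 5hmC, the closest of the 5 between replicates, although replicate 3 had no peak there. Ccdc177 had 37.1% in replicate 1, which had no peak there, but 6.45% and 21.4% in replicates 2 and 3.

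The 890 regions lay in 780 of the 18417 genes with coding sequence over 1000 bp from starts, or 4.24%. Of these, 689 had 1 region and 91 had more. Speg, a kinase related to myosin light chain kinases, had the most with 5, each called in 1 replicate only. Their 5hmC shares over all calls were 14.4% of 174, 46.7% of 15, 20% of 10 and 45.5% of 22, and the fifth had no call. Genes tied at 3 regions each included Cacna1a, Cep131, Dst, Fat1, Lrp4, Mideas, Mtcl1, Plppr3, Spen, Tiam1, Zfhx2, Zfp316 and Zfp469. Cacna1a encodes the P/Q-type calcium channel of Purkinje cells.

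Gene groups differed in how many members held a region, beside 4.24% of all genes and 30.1 regions per 1000 kb of coding sequence. In axon guidance, 13 of 66 genes (19.7%) had a region, at 92.9 regions per 1000 kb. Among them were Ntn3, the Eph receptors Epha8, Ephb2 and Ephb4, and the plexins Plxna2, Plxnb2 and Plxnd1, with the highest fold enrichment in Epha8, 4.84 in replicate 3. Fold enrichment moved in steps within a replicate, and 4.79 in replicate 2 and 4.84 in replicate 3 stand for about as many reads. Orders by it across replicates, here and below, are therefore loose. Potassium channels had 8 of 90 (8.89%), at 84.8 per 1000 kb. Of their 11 regions, 4 were in at least 2 replicates, in Kcna1, Kcnd2, Kcnj12 and Kcnj9, against 98 of all 890 regions (11%). The LDL receptor family had 2 of 12 (16.7%), Lrp1 and Lrp4, at 76.1 per 1000 kb. Spectrins and ankyrins, the membrane skeleton of axons, had 4 of 10, namely Ank2, Ank3, Sptb and Sptbn4, at 74.8 per 1000 kb. Regions in at least 2 replicates numbered 3 of 17 in axon guidance, 1 of 5 in the LDL receptor family and 2 of 6 in spectrins and ankyrins. In calcium channels and stores they numbered 0 of 7.

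The lists below had fewer than 50 regions per 1000 kb. Calcium channels and stores had 5 of 31 genes (16.1%), with Cacna1i highest at 4.75 in replicate 2. Motor proteins had 12 of 102 (11.8%), led by Kif3c with 6.36 in replicate 3, but only 21.2 regions per 1000 kb, below the 30.1 of all genes. Chromatin regulators had 11 of 105 (10.5%), led by the remodeller Chd7 with 5.84 in replicate 3, and cadherins and protocadherins 9 of 98 (9.18%), led by Celsr2. Glutamate receptors and scaffolds had 3 of 38 (7.89%), led by a region of the metabotropic receptor Grm4 with a peak in replicate 2 only. Over all replicates that region had 3.23% 5hmC and 90.3% unmodified C of 31 calls. Zinc finger proteins had 26 of 481 (5.41%), led by Zbtb7a. Solute carriers had 17 of 362 (4.7%), led by the sodium-calcium exchanger Slc8a2 with 5.53 and 2.83 in replicates 1 and 2 and 36.9% 5hmC of 222 calls. The extracellular matrix list had 4 of 60 (6.67%), above the share of all genes, but the fewest regions for its length of the lists with any, 16.4 per 1000 kb, led by the laminins Lamb3 and Lamc1, equal at 4.84 in replicate 3. No region lay in the 21 GABA and glycine receptor genes or in the 25 adhesion GPCR genes with an Adgr symbol, against 4.24% of all genes; the Celsr genes, also adhesion GPCRs, were counted with the cadherins. Of 31 markers of cerebellar cell types, the granule cell genes Fat2 and Rbfox3 had regions, and that of highest fold enrichment, in Fat2, had 51.4% 5hmC of 37 calls. The counts are descriptions, since genes with more coding sequence can hold more regions.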

How the data were processed

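Cerebellum DNA was immunoprecipitated in 3 hMeDIP reactions and sequenced on MinION flow cells. The authors base-called the reads with Dorado, aligned them to mm39 (GRCm39) with minimap2 and called peaks in each replicate alone with MACS2 against untreated input. SAMtools is also named in the submitters' processing notes. The deposited peak lists give the fold enrichment (a ratio), −log10 p-value and −log10 q-value, a display score and the summit. The deposited modkit pileups give the counts of calls for each of the 3 states, with percent values, at forward-strand CpGs in peaks of any replicate.

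Here peaks on chromosomes 1 to 19 were merged at an overlap of 1 bp, and each peak took the class of the midpoint of its merged region. Exon values came from the transcript with the longest coding sequence. Shares were summed calls of a state over all calls, with no minimum of calls per CpG, inside a replicate's own peaks, but over the whole merged region in every replicate where a single region is described. Replicates were compared by a two-sided exact sign-flip permutation test, whose smallest p with 3 replicates is 0.25. The total depth of calls in coding-exon peaks (1568, 11285 and 7091) sets the precision. Intervals are exact binomial at 95%. Members and gene lists were chosen with earlier results of these data known. Genes named are those with a peak in all replicates, the 10 of highest mean fold enrichment in exactly 2, those with most regions (ties included), the 5 regions with most calls, the 3 highest and 3 lowest in 5hmC with at least 40 calls, the region of highest fold enrichment in each list, and the 3 in the longest exons. Kcna1, Kcnj12 and other list members were named after their values were seen. A few genes and 1 list that meet these rules are not reported here. Alternatives covered the distance from starts, overlap, peak thresholds, call minimum, sites used, background and single replicates. Functions were tested on simulated data. The scripts used pandas 2.3.3, pysam 0.24.0, numpy 2.4.6, scipy 1.17.1 and matplotlib 3.10.9 under Python 3.11.15.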

Additional observations from a re-analysis of the deposited data

How the results depend on the processing

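Of 112 alternatives to 16 results, 98 kept the direction of a difference, or left a level within its spread and a count within 1.5 times, 8 moved and 6 turned the direction. The exact sign-flip test over 3 replicates cannot pass 0.05, so that for differences only the direction was judged, and several changed in size. Peaks with a fold enrichment of at least 4 gave 275 coding-exon regions, 9.96% of merged regions. Leaving out each replicate in turn gave 433 to 865 regions, the lowest without replicate 2, which gave most peaks. The 5hmC share of 27.1% was 31.1% in regions with under 4 CpGs per 100 bp and 24.3% in denser ones, and the difference from introns turned to 4.81 points in the latter. Without regions in which a CpG had 20 or more calls, the share in dense regions was again 24.3% and the difference −0.587. At CpGs with at least 5 calls, of which 3, 20 and 6 were left in replicates 1 to 3, the 5hmC share was 21.9%, the 5mC share 28.7% the 5hmC difference from introns 5.91 points and the 5mC difference −32.6 ± 19.2. At 3 calls the 5hmC difference was −0.413, and that of coding from flanking intron CpGs −17.3 in place of −4.62. The 5mC difference from introns of −0.319 turned to 2.86 points without regions in which a CpG had 20 or more calls, and ran from −1.32 to 0.54 with single replicates left out, the highest without replicate 3. Codon position 3 against 1 and 2 ran from −1.7 to 0.99, the highest without replicate 1. Own peaks against regions without a peak ran from −0.0243 to 1.41, the lowest without replicate 3. Median exon length exceeded its background by 351 bp without replicate 1 and by 622 bp with it. Causes were not tested. The alternatives on CpG density, splice distance and recurrent regions were added after seeing the data. A median of 1 call per CpG limits statements to sums over many CpGs.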
